A study of Mus musculus with 4 samples.

Results

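The combination group aC+C was compared, gene by gene and cell class by cell class, with the value that the single groups Ac and C would give if their effects multiplied. The comparison used 4 libraries of 4 in the series, which are droplet-based single-cell RNA libraries of mouse cells: the control IgG, the single groups Ac and C, and the combination. What Ac and C stand for is not written out in the labels, and the single group is written Ac while the combination is written aC+C. All mice were 6 to 8 weeks old per the labels, and no strain, dose or treatment time is given in the sources used here. Barcodes with at least 1000 unique molecular identifiers (UMIs, each standing for 1 captured transcript molecule), at least 200 genes and at most 10% mitochondrial UMIs were taken as cells, which gave 15752 cells. By their marker genes 13722 of them fell into 7 classes with at least 100 cells in every library, and 60679 pairs of a class and a gene with at least 100 UMIs over the 4 libraries were compared.

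The labels disagree on what was captured. Sample titles and the series title name immune cells or CD8 T cells that had infiltrated a tumor, while the source, the cell type and the protocol are those of intestinal goblet cells, which secrete mucus, sorted from a reporter mouse line. The 8 epithelial and goblet cell markers summed to 13.2 to 21.8 counts per 1000000 UMIs (CPM) over the cells of a library, against 2719 to 5693 for the 9 monocyte and macrophage markers, and immune and mesenchymal classes made up nearly all cells. Total UMIs per library ran from 61519049 to 75665201, cells per library from 3436 to 4208, and the median UMIs per cell from 10493 to 11594.5. Any pair of libraries shared 2 to 7 cell barcodes, against 2.04 to 2.53 by random draw.

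When 2 treatments act independently on a level, their fold changes are commonly taken to multiply, which is the same as adding them on the log scale. The product value was therefore the level in Ac times the level in C divided by the level in IgG, and the measured level in aC+C was divided by it. A ratio of 1 means that aC+C lay where the single effects put it, a ratio of at least 1.5 was called above the product value, and a ratio of at most 1 divided by 1.5 was called below it. With 1 library per group there is no replicate spread and no test. All values describe these libraries, and intervals are 95% intervals for counting error only. IgG enters both single effects, so a chance error in IgG moves the product value, and a gene that is high in IgG alone has a low product value. Where 4 values follow each other with no group beside them, their order is the control, Ac, C, then the combination.

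CD8 T cells, the cytotoxic T cells that kill infected or malignant cells, and natural killer (NK) cells departed from the product value in opposite directions. CD8 T cells made up 28.6% of the IgG library (982 cells), 28.3% of Ac (1138 cells), 14.1% of C (595 cells) and 23.7% of the aC+C library (967 cells). The product value was 14.0%, and the measured share was 1.69 times it (1.51 to 1.91), or 1.44 times when every cell was thinned to 1000 UMIs before gating, which is not a call. The share was low in C alone, and aC+C lay between C and the other libraries. NK cells made up 14.1%, 11.4%, 13.2% and 5.83%, the last from 238 cells, and the measured share was 0.548 times the product value of 10.7% (0.454 to 0.661). Neither single library had an NK share close to that of aC+C. Regulatory T cells, which restrain other T cells and are marked by Foxp3, made up 4.89%, 7.45%, 5.56% and 4.88%. The measured regulatory T cell share was 0.576 times the product value of 8.47% (0.444 to 0.746), since aC+C had the level of IgG while both single libraries lay higher. When cells needed at least 8000 UMIs, this ratio was 0.886, and when every cell was thinned to 1000 UMIs before gating it was 0.748, and neither is a call.

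Monocytes and macrophages, phagocytes that enter tissue from blood or reside in it, made up 14.3% of the IgG library, 25.4% of Ac, 26.1% of C and 32.8% of the aC+C library. Both single libraries were higher than IgG and aC+C was the highest, yet the product value was 46.4%, and the measured share was 0.707 times it (0.628 to 0.796), which is within 1.5 times. Adding the differences in place of multiplying the ratios gave 37.2%, from which aC+C differed by a ratio of 0.882. Fibroblast or mesenchymal cells, defined by collagen genes, made up 4.10%, 5.34%, 6.06% and 8.94%, or 1.13 times the product value (0.876 to 1.47). CD4 T cells that lacked Foxp3 made up 5.36%, 5.12%, 5.23% and 5.12%, and the ratio was 1.03 (0.785 to 1.34). Other T cells, which met the T cell gate but not those of the 3 T cell classes, made up 13.1%, 8.07%, 13.3% and 7.79%, a pattern in which aC+C followed Ac and the ratio was 0.952 (0.789 to 1.15). UMIs of CD8 markers were found in 34.0% to 47.5% of these other T cells and Cd4 UMIs in 16.7% to 31.0%. Dendritic cells, which present antigen, made up 2.27%, 2.51%, 1.38% and 1.54%, lower in C and aC+C than in IgG and Ac, with a ratio of 1.01 (0.641 to 1.60). Shares add up to 100%, so a class that takes more of a library lowers the others, and a change in cell number cannot be told apart from a change in the other classes.

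B cells numbered 4, 17, 12 and 64, a ratio of 1.52 (0.434 to 5.29). Mast cells or basophils numbered 15, 6, 5 and 6, a ratio of 3.63 (0.795 to 16.5), and neutrophils 8, 10, 14 and 13, a ratio of 0.898 (0.271 to 2.97). B cells and mast cells or basophils were thus past the 1.5 times rule, but on few cells, and the intervals of all 3 classes hold 1, so a departure could not be told from counting error at this depth. Cells with markers of 2 lineages made up 8.94%, 3.15%, 11.2% and 4.93%, and had median UMIs of 25529 to 29982, against 10705 to 12892 in CD8 T cells. Their share was lower in Ac and aC+C than in the other libraries, and values that move with it are given beside the classes below.

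**Figure D1:**
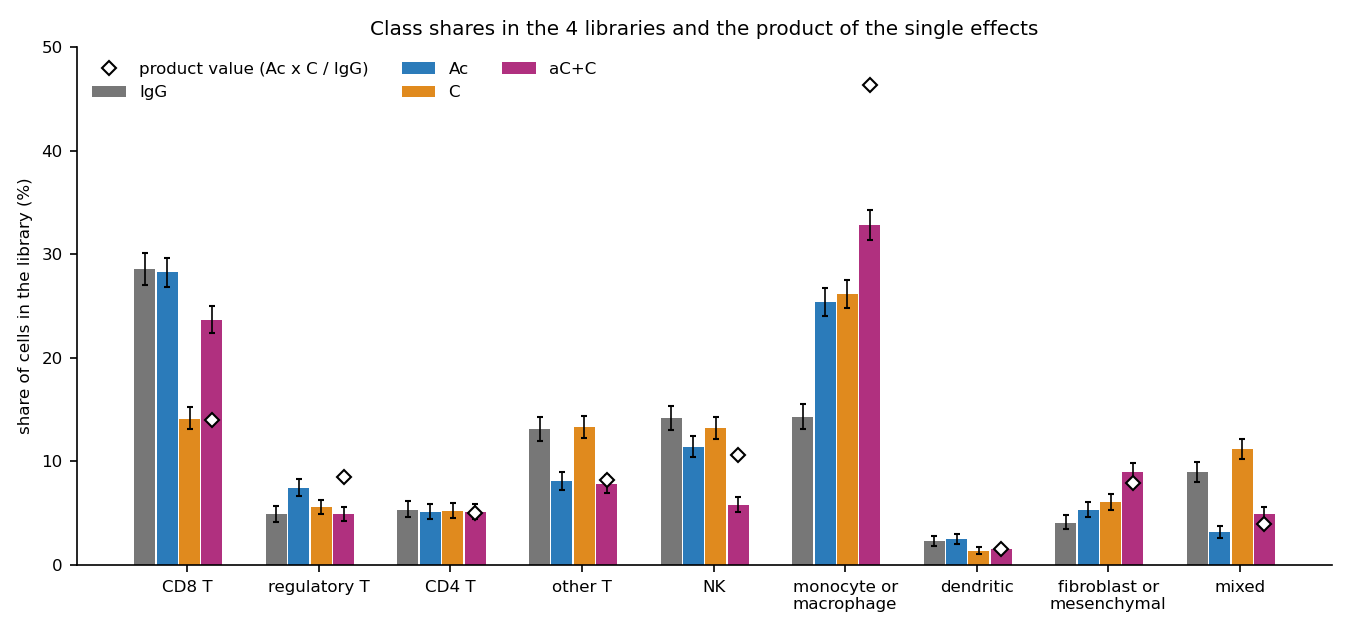
Share of cells (percent, bars from 0) in each marker class for the 4 libraries, with exact 95% binomial intervals; diamonds are the product values. The CD8 T share of aC+C (23.7%) stands above its diamond at 14.0%, and the NK share (5.83%) and regulatory T share (4.88%) stand below theirs.

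Within CD8 T cells, 9978 genes could be compared. Of these, 357 (3.58%) lay above the product value and 715 (7.17%) below it, and the median ratio over all genes was 0.965. The counting interval excluded 1 for 236 of the genes above and 500 of those below. Most genes lay within 1.5 times of the product value, whatever the size of their single effects. Of 242 genes higher than IgG by at least 0.32 on the log2 scale in both single libraries, 74 lay at the product value. Of 251 genes lower in both by as much, 122 did. Of the lists of lymphocyte genes, the cytokines and chemokines had most members below and the cytotoxic effectors most members above.

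Cytokines and chemokines of lymphocytes were mostly higher in C than in IgG and not in aC+C. Relative to IgG the medians over the list were 1.09 for Ac, 1.53 for C and 0.893 for aC+C. Of 13 measured members, 10 lay below the product value and none above, with a median ratio of 0.530; 6 lay below when each cell had the same weight. Ifng encodes interferon gamma, which activates macrophages and raises antigen presentation. It measured 207 CPM (IgG), 226 (Ac), 317 (C) and 220.0 (aC+C). The C library was the high one and aC+C lay beside Ac, against a product value of 346 CPM and a ratio of 0.636 (0.593 to 0.683), or 0.670 with each cell weighing the same, which is no longer a call. Xcl1, a chemokine for dendritic cells that cross-present antigen, measured 106 CPM (IgG), 93.5 (Ac), 232 (C) and 49.2 (aC+C). Here aC+C was lower than every other library, and the ratio to the product value of 204 CPM was 0.242 (0.216 to 0.270), or 0.372 with each cell weighing the same. A single cell held over 10% of the Xcl1 UMIs in at least 1 library. Csf2 encodes the growth factor GM-CSF of myeloid cells and measured 6.34, 6.90, 20.2 and 3.83 CPM, a ratio of 0.175 (0.116 to 0.265), with up to 24.3% of a library's UMIs in 1 cell, or a ratio of 0.102 with each cell weighing the same. The chemokines Ccl3 and Ccl4 attract myeloid and T cells. Ccl3 measured 106, 188, 212 and 163 CPM, and aC+C lay below both single libraries at 0.433 times the product value. Ccl4 measured 515, 608, 779 and 547 CPM, a ratio of 0.594. With each cell weighing the same the ratios of Ccl3 and Ccl4 were 0.733 and 0.912, so both calls depend on how cells are weighted. Tnf, an inflammatory cytokine, measured 10.3, 9.31, 17.7 and 8.52 CPM with a ratio of 0.530 (0.381 to 0.737). Ccl1 had the lowest ratio of the group, 0.0779, but 1 cell held up to 35.6% of its UMIs.

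Genes of the killing machinery went the other way. Of 15 cytotoxic effector genes, 8 lay above the product value and 1, Tnfsf10, below it, with a median ratio of 1.56. Gzmb encodes granzyme B, the protease that starts death of the target cell, and measured 1544 CPM (IgG), 1769.7 (Ac), 1237 (C) and 2309 (aC+C). The aC+C library was the highest and C the lowest, and the ratio was 1.63 (1.58 to 1.68), or 1.41 with each cell weighing the same, which is not a call. Prf1 encodes perforin, the pore through which granzymes enter, and measured 123 CPM (IgG), 156 (Ac), 148 (C) and 272 (aC+C). It lay at the product value by the 1.5 times rule, with a ratio of 1.46 (1.33 to 1.59), although aC+C was the highest library. With each cell weighing the same, scaling by the median of ratios or adding the single differences, its ratio was 1.508 to 1.535, which is a call. Serpinb9b, of the family of granzyme B inhibitors, measured 37.9, 54.3, 56.3 and 126 CPM with a ratio of 1.56, again highest in aC+C, though 1.47 with at least 8000 UMIs per cell and 1.49 with T cell and CD8 markers at 2 times their minimums. Gzmk, a granzyme of less differentiated CD8 T cells, measured 59.9, 88.9, 30.1 and 78.7 CPM, where Ac and aC+C were higher than IgG and C, and its ratio was 1.76 (1.5 to 2.06), or 1.33 when the single differences were added. Granzymes C, D and E lie together in the genome. Gzmc measured 639, 275, 726 and 528 CPM, Gzmd 369, 139.7, 318 and 511 CPM and Gzme 196, 82.8, 205 and 325 CPM, each lowest in Ac. Their ratios were 1.69 (1.46 when the single differences were added), 4.26 and 3.74, but 1 cell held up to 38.4% of the UMIs of Gzmd and 25.7% of those of Gzme in a library. Gzma, in contrast, was lowest in aC+C at 249, 182, 218 and 129 CPM, a ratio of 0.807 within the rule.

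Inhibitory receptors and regulators of exhaustion, the dysfunctional state of T cells under lasting stimulation, lay at the product value in 14 of 15 cases, with a median ratio of 1.00. Pdcd1 encodes PD-1 and measured 305 CPM (IgG), 378 (Ac), 228 (C) and 372 (aC+C). It was low in C, and the aC+C level was that of Ac, at 1.32 times the product value (1.24 to 1.41). Tox, a transcription factor of exhausted cells, measured 176, 205, 189 and 157 CPM with a ratio of 0.715 (0.658 to 0.776). Cd200r1, an inhibitory receptor, was the 1 member below, at 24.4, 28.9, 35.1 and 19.8 CPM and 0.477 times the product value. Of the measured genes of quiescent and stem-like T cells, 8 of 10 lay at the product value and 2 above. Tcf7, the transcription factor that keeps T cells able to renew, measured 23.9, 14.4, 33.9 and 20.1 CPM, low in Ac and high in C, and its ratio was 0.982 (0.777 to 1.24). Klf2, which maintains quiescence and recirculation, measured 73.8, 56.1, 130.2 and 86.8 CPM with a ratio of 0.877, or 0.625 with at least 8000 UMIs per cell and 1.42 with each cell weighing the same. Il7r, the receptor for the survival cytokine interleukin 7, measured 63.5, 58.7, 84.8 and 90.4 CPM with a ratio of 1.15, or 1.64 with each cell weighing the same. No costimulatory receptor of 7 measured departed from the product value, nor did a gene of the S phase list (20 measured) or of the G2 and M phase list (24 measured). Mki67, a marker of dividing cells, measured 170.3, 194, 198 and 205 CPM with a ratio of 0.907 (0.838 to 0.983), and the class-defining Cd8a measured 755, 835, 695 and 797 CPM with a ratio of 1.04.

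NK receptors gave 7 of 18 members below the product value in the CD8 T class and 1 above. Ncr1, an activating receptor typical of NK cells, measured 24.96 CPM (IgG), 8.51 (Ac), 42.1 (C) and 3.48 (aC+C). Klrb1c measured 16.04, 10.8, 26.5 and 4.54 CPM. Both were higher in IgG and C than in Ac, and aC+C was lower again, with ratios of 0.244 (0.170 to 0.348) and 0.256 (0.182 to 0.360). A single cell held over 10% of the Ncr1 UMIs in at least 1 library. The 6 NK markers used for gating summed to 436, 363, 454 and 387 CPM in this class, also higher in IgG and C than in the other libraries, and their part in these values was not tested. Immediate early genes, which respond within minutes to stimulation and to tissue dissociation, gave 5 of 19 members below and 1 above. Fosb measured 333, 259, 352 and 182 CPM, Dusp1, a phosphatase that ends MAP kinase signals, 189, 179, 202 and 117 CPM, and both were lowest in aC+C. Their ratios were 0.664 and 0.612, which became 0.771 and 0.694 with each cell weighing the same, and Fosb was no call either without doublets (0.673) or with scaling by the median of ratios (0.693). Cd74, the invariant chain of MHC class II, which mouse T cells largely lack, measured 748, 93.8, 719 and 74.8 CPM. It tracked the dendritic cell markers in this class, which summed to 30.5, 2.21, 16.8 and 2.27 CPM, and the share of cells with markers of 2 lineages, and the part of either in this value was not tested. Its ratio was 0.830, and 0.465 once cells with markers of 2 lineages were assigned to a class.

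The genes furthest from the product value in CD8 T cells, with no cell holding over 10% of their UMIs, included Cish and Sema6d below it and Zbtb32, Chchd10 and Xlr4c above it. Cish encodes an inhibitor of cytokine and T cell receptor signalling that is itself induced by cytokines through STAT5. It measured 115 CPM (IgG), 147 (Ac), 175 (C) and 88.5 (aC+C). Both single libraries were higher than IgG and aC+C was lower than IgG, at 0.394 times the product value of 224 CPM (0.358 to 0.435). Sema6d, a semaphorin, measured 16.6, 27.9, 31.4 and 14.9 CPM in the same order of libraries, with a ratio of 0.282 (0.222 to 0.358). Clnk, an adaptor of immune receptor signalling, measured 4.59, 6.50, 6.65 and 0.639 CPM with a ratio of 0.0711 (0.0335 to 0.151), from 9 UMIs in aC+C, of which 1 cell held 33.3%. Zbtb32, a transcriptional repressor of activated lymphocytes, measured 51.1 CPM (IgG), 46.7 (Ac), 42.5 (C) and 84.1 (aC+C). Neither single library was higher than IgG, yet aC+C was the highest, at 2.17 times the product value of 38.9 CPM (1.85 to 2.53). Chchd10, a protein of mitochondrial cristae, measured 77.9, 73.8, 60.7 and 136 CPM with a ratio of 2.36 (2.08 to 2.67), in the same order of libraries. The X-linked gene Xlr4c measured 13.97, 8.71, 7.59 and 17.7 CPM, low in both single libraries, with a ratio of 3.72 (2.63 to 5.27). Near-identical copies of Xlr4c exist, so reads may be split among them. The heat shock gene Hsph1 measured 75.3, 56.5, 58.5 and 85.02 CPM with a ratio of 1.94.

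**Figure D2:**
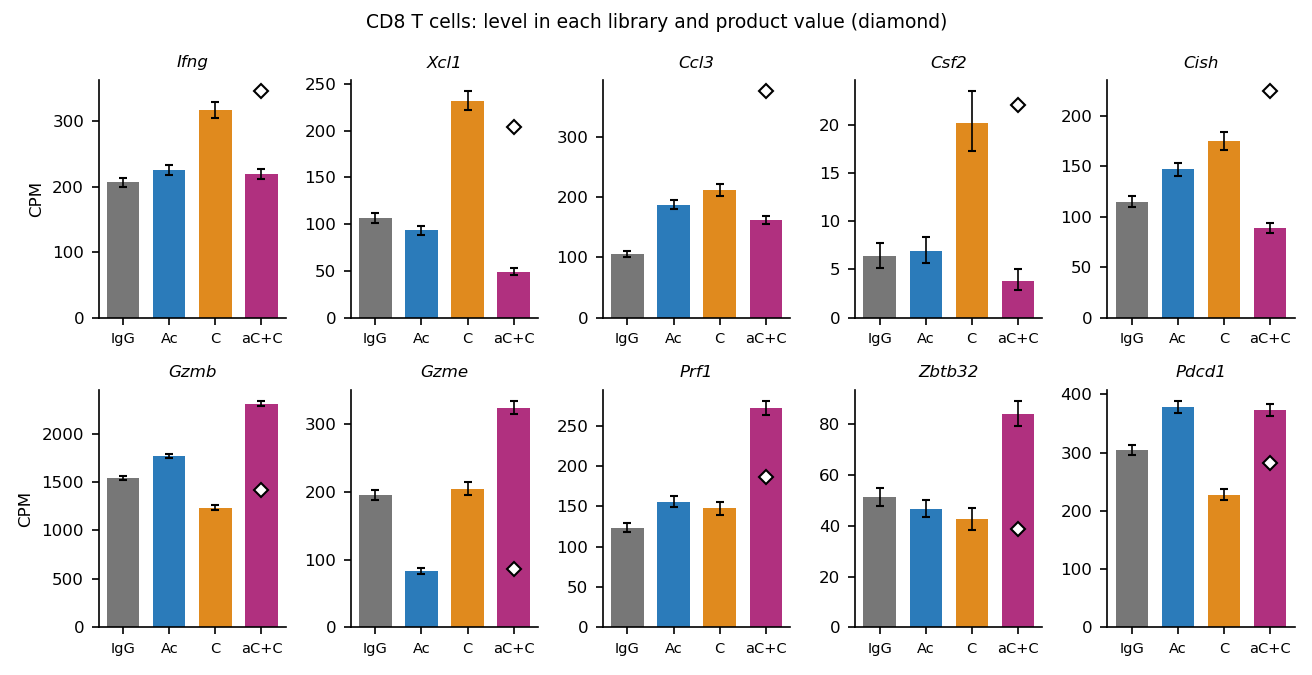
Summed level in CD8 T cells (CPM, bars from 0, own scale per gene) of 10 genes in each library, with 95% counting intervals; diamonds are the product values. Ifng, Xcl1, Ccl3, Csf2 and Cish have aC+C below the diamond, and Gzmb, Gzme, Prf1, Zbtb32 and Pdcd1 have it above, of which Prf1 and Pdcd1 are within 1.5 times.

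NK cells were fewest in aC+C, and mitosis genes took a larger part of their UMIs there than the single effects give. Of 8686 genes compared in NK cells, 627 (7.22%) lay above the product value and 474 (5.46%) below, with a median ratio of 1.01. The counting interval excluded 1 for 370 of the genes above and 233 of those below. This excess above did not hold with NK markers at 2 times their minimum (463 above, 558 below) or with each cell weighing the same (701 and 708). Of 24 genes of the G2 and M phases, 21 lay above and none below, with a median ratio of 2.20, while 18 of 20 S phase genes lay at the product value. The fibroblast or mesenchymal markers summed to 10.6, 6.88, 11.5 and 39.4 CPM in the NK class, also highest in aC+C, and their part in these values was not tested. With NK markers at 2 times their minimum, 15 of the 24 lay above. Ube2c, which marks cyclins for destruction in mitosis, measured 48.05 CPM (IgG), 54.9 (Ac), 63.4 (C) and 186 (aC+C). Birc5, which encodes survivin of the dividing chromosome complex, measured 80.5 CPM (IgG), 55.9 (Ac), 78.3 (C) and 128 (aC+C). Tpx2, which assembles the spindle, measured 32.9, 27.5, 24.6 and 62.1 CPM, and Mki67 81.1, 73.2, 70.4 and 113 CPM. In each of these 4 genes aC+C stood above all other libraries, and the ratios were 2.56 (2.11 to 3.12), 2.35, 3.01 and 1.78. For Birc5 the Ac library was low, which lowers its product value. A single cell held up to 15.7% of the Mki67 UMIs of a library, and 35.4% for the kinetochore gene Cenpf, so part of this rests on few cells. Relative to IgG the list's medians were 0.876 for Ac, 1.10 for C and 1.88 for aC+C.

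The NK receptors did not move with this, as all 18 lay at the product value. Ncr1, Klrb1c, Klre1, Klra4 and Klra8 are also among the markers that gate this class, so the gate itself partly holds their level. Ncr1 measured 437, 472, 504 and 449.9 CPM with a ratio of 0.827, and Gzmb 2341, 2694, 2539.8 and 2612 CPM with a ratio of 0.894. Prf1 measured 195, 249, 259 and 297 CPM with a ratio of 0.897. Ifng was lowest in aC+C at 75.9, 77.97, 80.3 and 57.2 CPM, but its ratio of 0.695 (0.563 to 0.857) is within the rule, and 0.501 with at least 8000 UMIs per cell. Gzme, low in both single libraries at 1276, 756, 869 and 1127 CPM, lay above with a ratio of 2.19 (2.07 to 2.31). The transcription factors Crem, a repressor induced by cyclic AMP, and Ahr, the aryl hydrocarbon receptor, were lower in both single libraries than in IgG and aC+C. Crem measured 127, 95.4, 67.2 and 107 CPM and Ahr 33.3, 22.3, 20.1 and 31.2 CPM, with ratios of 2.13 and 2.33. The integrin gene Itgav, a subunit through which TGF-beta can be activated, was higher in the single libraries and lowest in aC+C at 88.1, 110.3, 105 and 72.6 CPM, a ratio of 0.552 (0.459 to 0.665).

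Regulatory T cells gave 523 of 6645 genes (7.87%) above the product value and 649 (9.77%) below, with a median ratio over all genes of 0.984. The counting interval excluded 1 for only 282 of the genes above and 300 of those below. The excess below turned with an offset of 5 UMIs (544 above, 408 below), with the single differences added (646 and 573) and with scaling by the median of ratios (589 and 574). Here too 21 of 22 measured genes of the G2 and M phases lay above and none below, with a median ratio of 2.38, but the levels differ from those in NK cells. Mki67 measured 202 CPM (IgG), 159 (Ac), 105 (C) and 146 (aC+C), and Birc5 179, 119.8, 96.03 and 153 CPM. IgG was the highest library for both. For Mki67 aC+C lay between the single libraries and for Birc5 above them, so it was not as low as the product of the single reductions. Ratios were 1.77 and 2.38, and that of Mki67 became 1.39 with at least 8000 UMIs per cell and 1.15 with cells of 2 lineages assigned. Cdk1, the kinase that drives mitosis, measured 101, 53.1, 47.8 and 70.03 CPM with a ratio of 2.79. Ctla4, the inhibitory receptor that regulatory T cells carry at high level, measured 1185, 1819.6, 1138 and 1684 CPM and lay at the product value with a ratio of 0.964. Il10, an anti-inflammatory cytokine, was highest in Ac at 108, 210.1, 142 and 162 CPM, with a ratio of 0.589 (0.463 to 0.749), or 0.813 with each cell weighing the same and 0.335 with at least 8000 UMIs per cell. Havcr2, which encodes the receptor TIM-3, was highest in aC+C at 59.2, 59.4, 38.1 and 81.8 CPM, a ratio of 2.13 (1.45 to 3.13). Cd69, an early activation marker that holds T cells in tissue, was lowest there at 277, 305, 317 and 173 CPM, a ratio of 0.495 (0.411 to 0.597). NK markers summed to 332, 37.2, 417 and 61.0 CPM in this class, low in Ac and aC+C, and their part in these values was not tested.

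CD4 T cells without Foxp3 gave 453 of 5590 genes (8.1%) above the product value and 543 (9.71%) below, with a median ratio over all genes of 0.988. The counting interval excluded 1 for only 238 of the genes above and 237 of those below. Here too the excess below turned with an offset of 5 UMIs (432 above, 388 below), the single differences added (593 and 502), scaling by the median of ratios (505 and 483) and at least 8000 UMIs per cell (382 and 376). Genes of naive and memory-type cells lay above in 5 of 9 cases and none below, and interferon-stimulated genes in 9 of 23 with 1 below. Tcf7 measured 114 CPM (IgG), 69.1 (Ac), 109.9 (C) and 148 (aC+C), and Lef1, its partner factor, 77.8, 51.8, 59.4 and 161 CPM. In both, aC+C was the highest library, with ratios of 2.21 (1.59 to 3.09) and 4.04 (2.72 to 5.98). Isg15, a ubiquitin-like protein induced by interferon, measured 256, 201, 183 and 325 CPM with a ratio of 2.26. Ifng was low in C at 220.2, 261, 77.2 and 168 CPM, so the product value was low and the ratio 1.83 (1.39 to 2.42), opposite to the side in CD8 T cells. Adding the single differences gave 1.419 for Ifng, which is no call, and the difference between the classes was not tested. Pdcd1 was also lowest in C at 245, 380.1, 132 and 339.9 CPM, with a ratio of 1.65, or 1.41 with each cell weighing the same and 1.27 when the single differences were added. Cish again lay below, at 337, 363, 413 and 249 CPM and 0.560 times the product value, though at 0.814 with at least 8000 UMIs per cell. In the other T cells 368 of 8990 genes (4.09%) lay above and 800 (8.9%) below, and the counting interval excluded 1 for 164 and 421 of them. Cish measured 186, 175, 292 and 133 CPM in the other T cells, with a ratio of 0.484 (0.418 to 0.560). Nt5e, which encodes the enzyme CD73 that makes adenosine, measured 35.1, 79.3, 59.6 and 56.3 CPM there, with a ratio of 0.420. It was higher in both single libraries than in IgG, and aC+C was no higher than either.

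In monocytes and macrophages many genes differed from IgG in the same direction in both single libraries, and for most of these aC+C was short of the product value. Of 10063 genes, 584 (5.8%) lay above the product value and 858 (8.53%) below, and the median ratio was 0.986. The counting interval excluded 1 for 442 of the genes above and 553 of those below. The excess below turned with an offset of 5 UMIs (671 above, 576 below) and with the single differences added (810 and 666). Among 703 genes higher than IgG by at least 0.32 on the log2 scale in both single libraries, aC+C lay past the product value for 1, at it for 209, short of it for 438 and on the other side of IgG for 55. Among 550 genes lower in both, the numbers were 1, 227, 292 and 30. This was not particular to the class. Among genes higher in both, aC+C was short for 209 and on the other side for 51 of 341 in fibroblast or mesenchymal cells. The numbers were 121 and 43 of 242 in CD8 T, 180 and 32 of 352 in regulatory T and 117 and 34 of 216 in CD4 T cells. They were 128 and 47 of 262 in other T cells, and 87 and 38 of 257 in NK cells. Since IgG is shared, such counts contain genes that were extreme in IgG by chance.

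Lipid handling and alternatively activated genes showed this pattern at high expression. Apoe encodes apolipoprotein E, which carries cholesterol out of macrophages. It measured 10071 CPM (IgG), 15059 (Ac), 15536 (C) and 11210.0 (aC+C). Both single libraries were higher than IgG, aC+C lay between IgG and them, and the ratio to the product value of 23231 CPM was 0.483 (0.477 to 0.488). Fabp5, a fatty acid carrier, measured 181, 357, 409.9 and 480.2 CPM, with aC+C the highest library but still 0.595 times the product value (0.550 to 0.644). Adding the single differences put Fabp5 at 0.820, and assigning cells of 2 lineages at 0.674, both within the rule. Trem2, a lipid-sensing receptor of tumor macrophages, measured 329.9, 432, 475 and 393 CPM with a ratio of 0.633, which was 0.695 with cells of 2 lineages assigned and 0.682 with the single differences added. Arg1, which breaks down arginine, measured 1255, 2260.2, 1698 and 2154 CPM and lay within the rule at 0.704, or below it at 0.611 with each cell weighing the same. C1qa, a complement subunit of mature macrophages, measured 3199.6, 3759, 3735 and 3376 CPM with a ratio of 0.769. In all, 6 of 20 genes of this list lay below, 1 above, and the median ratio was 0.755. Tmem37, named by its distance from the product value, measured 65.5, 108, 124 and 85.3 CPM with a ratio of 0.416 (0.362 to 0.477), and Sqle, an enzyme of cholesterol synthesis, 8.48, 18.3, 12.9 and 7.91 CPM with a ratio of 0.287 (0.193 to 0.426). Sqle was higher than IgG in both single libraries and near the IgG level in aC+C.

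Genes of the G2 and M phases were higher in each single library than in IgG, with list medians of 2.19 for Ac, 1.68 for C and 1.56 for aC+C. Of 24 G2 and M phase genes, 20 lay below the product value and none above, with a median ratio of 0.425, and with each cell weighing the same 11 did. Mki67 measured 16.6 CPM (IgG), 38.4 (Ac), 34.1 (C) and 27.97 (aC+C), with a ratio of 0.356 (0.274 to 0.463). Top2a, a topoisomerase that untangles replicated DNA, measured 29.5, 69.6, 56.3 and 43.9 CPM with a ratio of 0.331 (0.271 to 0.404). IgG was the lowest library for both, and aC+C lay between IgG and the single libraries. Assigning cells of 2 lineages gave 0.588 and 0.564. Of 20 S phase genes, 10 lay below and none above, but their medians relative to IgG were 0.989, 1.10 and 0.829, so Ac was not higher and aC+C was lower than IgG.

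Monocyte genes went the other way. Ly6c2, the surface marker of inflammatory monocytes, measured 1098 CPM (IgG), 551 (Ac), 839 (C) and 978 (aC+C). It was lower in both single libraries, and aC+C was close to IgG, at 2.32 times the product value of 421 CPM (2.22 to 2.42). Plac8, expressed in recently arrived monocytes, measured 1854, 1188, 1609 and 2371 CPM with a ratio of 2.30, or 3.72 with at least 8000 UMIs per cell, and here aC+C was the highest library. S100a4, a calcium-binding protein of motile cells, measured 1259.5, 697, 639 and 689.7 CPM with a ratio of 1.95. In this case aC+C stayed at the level of the single libraries, so the ratio is above 1 because a second reduction did not add to the first. Of 10 monocyte genes 5 lay above and none below, with a median ratio of 1.52. The 4 neutrophil markers summed to 41.4, 75.6, 331 and 490 CPM in this class, highest in aC+C, and their part in the monocyte values was not tested.

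In monocytes and macrophages 7 of 24 measured interferon gamma response genes and 6 of 15 inflammatory myeloid genes, which include chemokines, lay above the product value, and none of either list below. Cxcl9 and Cxcl10 attract T and NK cells through the receptor CXCR3. Cxcl9 measured 482 CPM (IgG), 360.2 (Ac), 377 (C) and 609 (aC+C), and its ratio was 2.16 (2.03 to 2.29). Cxcl10 measured 622, 429, 527 and 863 CPM, a ratio of 2.38 (2.25 to 2.50). Both single libraries were lower than IgG for both chemokines, and aC+C was higher than IgG. Gbp4, an interferon-induced GTPase that attacks pathogen vacuoles, measured 61.3, 47.6, 51.98 and 95.01 CPM with a ratio of 2.35. Ccl5, a chemokine for T cells, measured 489.8, 571, 313 and 886 CPM, low in C and highest in aC+C, with a ratio of 2.43 (2.29 to 2.57). Ccl2, which recruits monocytes, measured 661, 477, 600.5 and 686 CPM and lay above at 1.58, or 1.42 with each cell weighing the same and 1.24 with cells of 2 lineages assigned. Cd274, which encodes PD-L1, was highest in aC+C at 90.4, 103, 96.9 and 139.7 CPM, but at 1.27 times the product value it was within the rule. All 8 genes of MHC class II lay at the product value. H2-Ab1 measured 5201, 4228, 4228 and 3299 CPM with a ratio of 0.960 (0.942 to 0.978), so its lower level in aC+C is what the single effects give when multiplied. Transcripts of lymphocyte granules also appeared in this class, all 11 measured above the product value, and Gzmb measured 24.3, 9.43, 11.5 and 13.98 CPM with up to 60.3% of a library's UMIs in 1 cell. Its ratio of 3.12 became 1.07 once cells with markers of 2 lineages were assigned, 1.65 with each cell weighing the same and 1.96 with 5% free RNA subtracted.

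**Figure D3:**
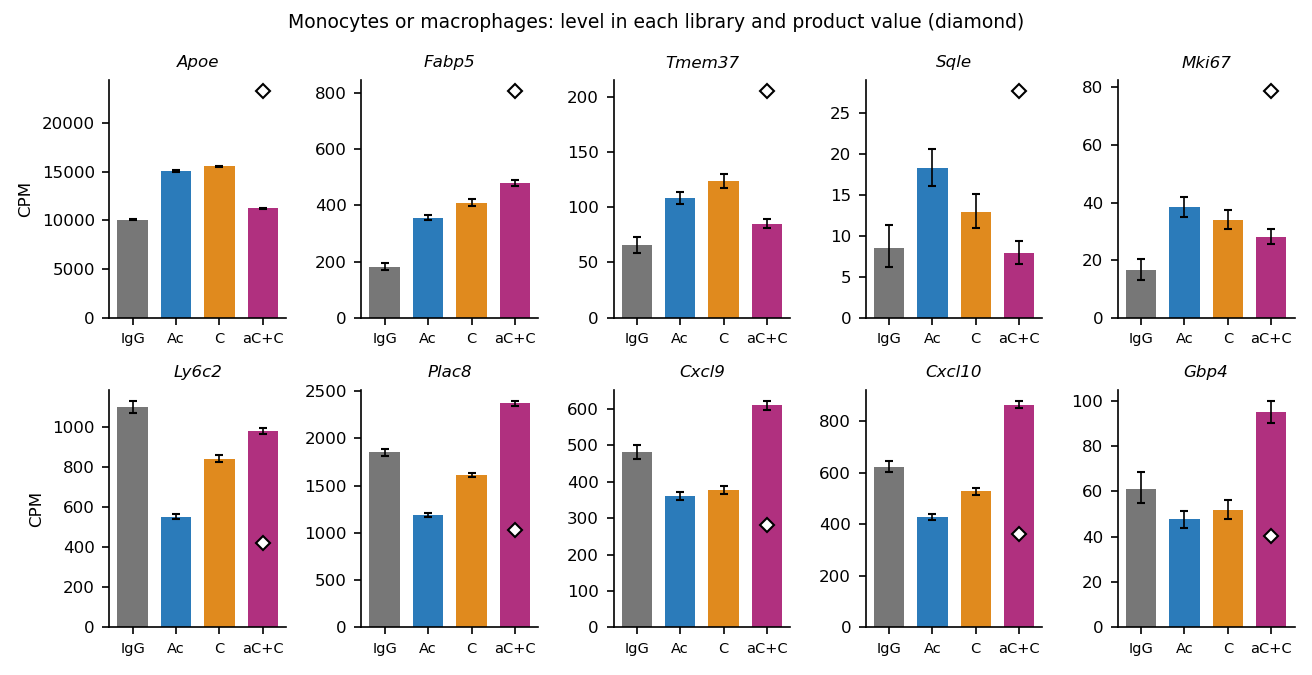
Summed level in monocytes and macrophages (CPM, bars from 0, own scale per gene) of 10 genes in each library, with 95% counting intervals; diamonds are the product values. For Apoe, Fabp5, Tmem37, Sqle and Mki67 aC+C lies below the diamond, and for Ly6c2, Plac8, Cxcl9, Cxcl10 and Gbp4 above it.

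Fibroblast or mesenchymal cells had the most UMIs per cell and 10727 genes compared, of which 440 (4.1%) lay above the product value and 931 (8.68%) below, with a median ratio of 0.948. The counting interval excluded 1 for 347 of the genes above and 656 of those below. Genes above made up 32.1% of those called here and 31.5% in the other T cells, or 46.7% and 44.2% with scaling by the median of ratios. NK markers had a UMI in 67.4% to 78.6% of these cells, at 98.7, 123, 107 and 156 CPM, against 276 to 461 CPM in free RNA. Of 11 measured inflammatory myeloid genes 6 lay above, among them Ccl2 and Ccl7, and 4 below, among them the chemokines Ccl3, Ccl4 and Cxcl2. Monocyte and macrophage markers summed to 79.3, 81.9, 230 and 132 CPM in this class, highest in C. Their part in the values of this list was not tested. Ccl2 measured 2956 CPM (IgG), 2828 (Ac), 1986 (C) and 4421 (aC+C), and its ratio was 2.33 (2.27 to 2.38). Ccl7, a related monocyte attractant, measured 161, 96.96, 78.5 and 246 CPM with a ratio of 5.19 (4.66 to 5.78), or 2.83 with cells of 2 lineages assigned and 3.19 with each cell weighing the same. Cxcl10 measured 830.1, 751, 481 and 1384 CPM with a ratio of 3.18 (3.04 to 3.32). In Ccl2, Ccl7 and Cxcl10, C was below IgG and aC+C above every other library. For Ccl7 and for Cxcl10, a single cell held over 10% of the gene's UMIs in at least 1 library. Gbp2, another interferon-induced GTPase, measured 253, 255, 312 and 652 CPM with a ratio of 2.07. Cd274 measured 17.7, 16.8, 14.3 and 30.5 CPM with a ratio of 2.24, or 1.44 with cells of 2 lineages assigned. Ly6a, a marker of stem-like stromal cells that interferon also induces, measured 649.8, 404, 443 and 759.6 CPM with a ratio of 2.76. Col1a1 and Col1a2, which helped define the class, were lower in every other library than in IgG. Col1a1 measured 1050.5, 646, 648 and 527 CPM with a ratio of 1.32 (1.79 with each cell weighing the same, 2.16 with the single differences added and 1.51 with a mitochondrial maximum of 5%), and Col1a2 824, 421, 452 and 377 CPM with a ratio of 1.63, above because the single reductions did not multiply. Scd2, a fatty acid desaturase, and Fdps, an enzyme of sterol synthesis, lay below. They measured 139, 194, 159.5 and 93.97 CPM and 121, 187, 144 and 97.3 CPM, higher in Ac than in IgG and lowest in aC+C, with ratios of 0.423 and 0.437. Cell cycle genes did not depart here: all 20 S phase and all 24 G2 and M phase genes lay at the product value.

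Type I interferon response genes often lay above the product value in monocytes and macrophages and in fibroblast or mesenchymal cells. They are switched on by an interferon-activated transcription factor complex that binds a DNA element of paired GAAA blocks in their promoters. In the 250 bases before the gene starts in RefSeq (build GRCm38.p6), the motif GAAANNGAAA on either strand was found for 10 of 20 listed genes that have a promoter entry (50%), against 936 of 27025 genes (3.463%). Overlapping matches were counted once per gene, and a match is a description of the letters, not a binding site. Stretches of 50 bases around a match are shown for Isg15, Ifit1 and Rsad2, whose values follow, and for Cxcl10, whose values stand above. They are on the gene's strand from 5′ to 3′, with the match in capitals, which on the opposite strand reads TTTC. They lie at chr4:156200861-156200910 for Isg15 (minus strand), chr19:34640784-34640833 for Ifit1 (plus strand), chr12:26456543-26456592 for Rsad2 (minus strand) and chr5:92349073-92349122 for Cxcl10 (minus strand).
Isg15: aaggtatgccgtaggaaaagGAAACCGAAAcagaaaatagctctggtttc
Ifit1: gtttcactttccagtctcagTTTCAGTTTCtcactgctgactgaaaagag
Rsad2: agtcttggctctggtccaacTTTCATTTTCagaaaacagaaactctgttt
Cxcl10: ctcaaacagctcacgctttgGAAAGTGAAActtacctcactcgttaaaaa

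In monocytes and macrophages 15 of 25 members of this list lay above and none below, with a median ratio of 1.52. Relative to IgG the list's medians were 0.772 for Ac, 0.830 for C and 0.941 for aC+C. With each cell weighing the same 7 lay above, and with cells of 2 lineages assigned 9 did, so this count depends on which cells carry the UMIs. Isg15 measured 518 CPM (IgG), 358 (Ac), 339 (C) and 459 (aC+C), with a ratio of 1.96 (1.84 to 2.08). Ifit1, which binds foreign RNA, measured 171, 137, 131 and 159.7 CPM, with a ratio of 1.52, or 1.22 with each cell weighing the same and 1.46 with a mitochondrial maximum of 5%. Rsad2, the antiviral enzyme viperin, measured 262, 245, 188 and 347 CPM, with a ratio of 1.97 (1.82 to 2.13). Isg15 and Ifit1 were highest in IgG and Rsad2 in aC+C, and in all 3 the C library was the lowest. In fibroblast or mesenchymal cells 16 of 25 lay above and none below, with a median ratio of 1.73, or 9 of 25 with each cell weighing the same. Isg15 there measured 277, 210.4, 158 and 282 CPM with a ratio of 2.36 (2.18 to 2.55), Ifit1 106, 98.5, 81.3 and 138 CPM with a ratio of 1.83 (1.33 with each cell weighing the same), and Rsad2 109, 143, 59.8 and 175 CPM with a ratio of 2.25. All 3 had C lowest and aC+C highest. In CD8 T cells the list showed no such pattern, with 1 member above, 3 below and a median ratio of 0.897, and Isg15 measured 149, 187, 104 and 136 CPM with a ratio of 1.04 (0.945 to 1.15). The difference between classes was not tested.

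**Figure D4:**
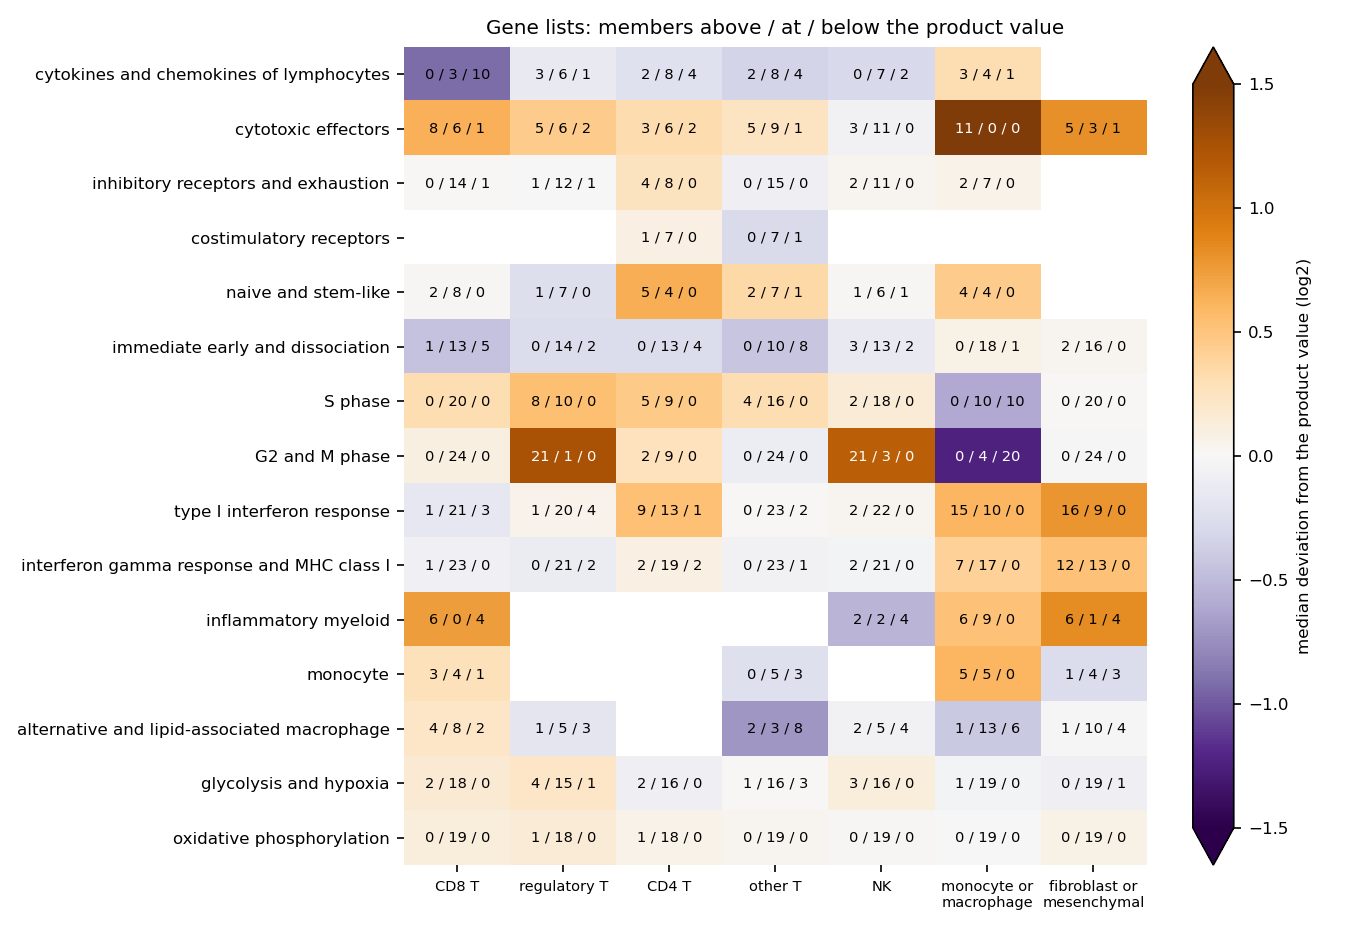
Gene lists (rows) in the 7 classes (columns): numbers are members above, at and below the product value, and colour is the list's median deviation on the log2 scale; lists with fewer than 8 measured members are blank. The G2 and M phase list has 21 members above in NK and in regulatory T cells and 20 below in monocytes and macrophages, and the cytokine list has 10 below in CD8 T cells.

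**Figure D5:**
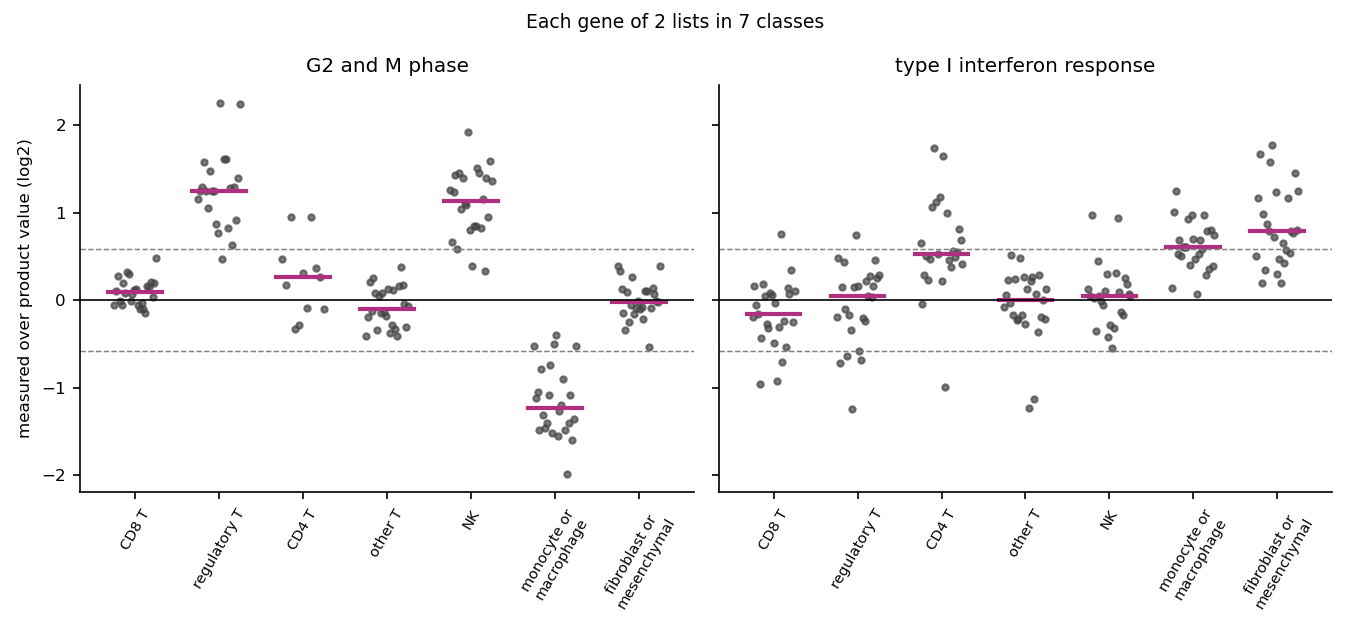
Measured over product value (log2 scale) of every measured member of 2 lists in each class, 1 point per gene, with the median as a bar and 1.5 times as dashed lines. In the G2 and M phase list all CD8 T and fibroblast or mesenchymal points lie between the dashed lines, whereas 21 NK points lie above and 20 monocyte or macrophage points below them.

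A count that does not depend on the product scale is that of genes for which aC+C lay outside the range of the other 3 libraries by at least 1.5 times. In CD8 T cells aC+C was higher than every other library for 37 genes (0.371%) and lower for 159 (1.59%). NK cells were the class with the most such genes on the high side, 158 (1.82%), against 111 (1.28%) on the low side. Monocytes and macrophages had 61 (0.606%) and 64 (0.636%), and fibroblast or mesenchymal cells 47 (0.438%) and 156 (1.45%). Regulatory T cells had 17 (0.256%) and 104 (1.57%), CD4 T cells 30 (0.537%) and 124 (2.22%), and the other T cells 42 (0.467%) and 232 (2.58%). In 6 of the 7 classes, all but NK cells, genes with aC+C lowest outnumbered those with aC+C highest, though in monocytes and macrophages only by 64 to 61. These counts were not recomputed under the alternative settings. Genes outside the range included Xcl1 and Clnk on the low side in CD8 T cells and Chchd10 and Zbtb32 on the high side.

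Across the 7 classes 5204 genes could be compared in all. Of these, 17 lay above the product value in at least 4 classes and 22 below in at least 4. Apoe lay below in all 7. In barcodes of 1 to 50 UMIs, which hold free RNA, the log2 ratio for Apoe was -1.45, the same side as in the cells. Apoe is made by macrophages, and its UMIs in lymphocytes can come from free RNA, so its ratio there was not read as a property of lymphocytes. Cish lay below in the 4 T cell classes, and its log2 ratio was -0.54 in NK cells, within the rule, and -0.62 in those barcodes, the same side.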

How the data were processed

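UMI counts were used as deposited, unnormalized, 1 matrix per library, with the authors' lists of gene names and barcodes (other: names, not values) for its rows and columns. Per the labels' protocols the libraries were made with 10x Genomics single cell 3' v2 reagents, while each matrix lists 6794880 barcodes, the size of a list for later reagents. The build mm10 and Cell Ranger 2.1.1 are given per the submitters' processing notes, but version 3.0.2 per the file headers. Reads of near-identical gene copies may be split or lost. The target was about 5000 cells per sample, and 3789 to 4626 barcodes per library had at least 1000 UMIs.

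Cells were assigned to a class by UMIs of marker panels, with minimums set after the data were seen. Cells of 2 lineages (mixed) or none stayed in the denominator of shares. Doublets were not removed in the main analysis; removing the cells with the highest Scrublet scores (scanpy 1.11.5, 0.8% per 1000 cells, 94 to 142 cells per library) was an alternative. UMIs were summed per class and library and expressed as CPM, 0.5 was added to each sum, and genes with at least 100 UMIs over the 4 libraries were compared with the product value. Intervals come from the 4 sums, or for shares from binomial counts; molecules of 1 cell are not independent. Differences in cell number and in RNA per cell do not enter the CPM. Of 360 genes in 20 lists and 14 marker panels, 359 were in the files. Scripts ran in Python 3.11.15 with numpy 2.4.6, scipy 1.17.1 and pandas 2.3.3, and were tested on simulated data.

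Named genes were those with no cell holding over 10% of the UMIs in a library (asked only where a library had at least 10 UMIs of the gene), ranked by the interval bound nearest to no deviation: 10 each way in CD8 T, NK and monocyte or macrophage cells and 4 each way elsewhere. At most 4 members per list and class were added by the same ranking with no limit on single cells, with Cd8a, Pdcd1, Ifng, Prf1, Gzmb, Cd274, Tcf7 and Mki67. The following were named after their values were seen: Ccl4, Gzma, Gzmk, Isg15, Serpinb9b and Tnf in CD8 T cells; Ncr1 in NK cells; Ctla4 in regulatory T cells; Arg1, C1qa, Ifit1 and Trem2 in monocytes and macrophages; and Ccl4, Col1a1, Cxcl2, Gbp2, Ifit1, Isg15 and Rsad2 in fibroblast or mesenchymal cells. The comparison, members and lists were chosen with earlier results of these data known.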

Additional observations from a re-analysis of the deposited data

Results flagged for a closer look

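For 10 of 641 named pairs of a class and a gene, C against IgG and aC+C against Ac pointed in opposite directions, each by at least 1.5 times. Both counting intervals also had to exclude 1, and the gene needed at least 400 UMIs over the 4 libraries. No cell could hold over 10% of its UMIs in a library, asked only where that library had at least 10 of them. Pairs that turned but missed any of these conditions, such as Xcl1 in CD8 T cells, were not counted. With 1 library per group the difference between these 2 effects was not tested, and no explanation was examined. The value given is the measured over the product value. Cish in CD8 T cells had 0.394 (C was 1.53 times IgG, and aC+C was 0.602 times Ac), Sema6d 0.282 (1.90 and 0.535 times), Klrb1c 0.256 (1.65 and 0.423 times) and Xlr4c 3.72 (0.546 and 2.03 times). In CD4 T cells Ppp1r14b had 0.344 (1.88 and 0.647 times) and 5430421N21Rik 0.394 (1.51 and 0.595 times). Sqle in monocytes and macrophages had 0.287 (1.51 and 0.434 times) and Ccl5 2.43 (0.639 and 1.55 times). In fibroblast or mesenchymal cells Atf3 had 2.58 (0.587 and 1.51 times) and Ly6c1 3.40 (0.595 and 2.02 times). Cish, Ppp1r14b, Sema6d, Klrb1c and Sqle were thus higher in C than in IgG and lower in aC+C than in Ac, and Ccl5, Xlr4c, Atf3 and Ly6c1 the reverse. Groups of 1 library allow no search for samples that stand apart.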

How the results depend on the processing

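No paired analysis was possible because each group has 1 library, and for the same reason no library could be left out. Of 212 recomputed shares, counts of genes and counts of list members, 188 stayed within the counting interval (shares) or 1.5 times (counts), and of 1212 recomputed ratios of named genes 1003 stayed within the counting interval. No gene called above or below passed to the other side of 1. Where values moved, the cause was not tested, except that a gene minimum sets how many genes are compared. The CD8 T share ratio was 1.44 after thinning to 1000 UMIs and 1.916 on odds; the regulatory T share ratio was 0.886 with at least 8000 UMIs per cell and 0.748 after thinning; the monocyte or macrophage share ratio was 0.882 with the single differences added. With no gene minimum, genes above and below the product value numbered 2729 and 3572 in CD8 T, 3652 and 1849 in NK, and 3213 and 3440 in monocyte or macrophage cells. With a minimum of 400 UMIs they numbered 113 and 300, 133 and 99, and 294 and 316, so low counts supply many calls. An offset of 5 UMIs left 257 NK genes below. Each cell weighing the same gave 551 CD8 T genes above, 6 CD8 T cytokines below, 11 monocyte or macrophage G2 and M phase genes below, and 7 and 9 type I interferon genes above in monocytes or macrophages and in fibroblast or mesenchymal cells. Assigning cells of 2 lineages, an alternative chosen after seeing the data, gave 9 such genes in monocytes or macrophages. Removal of doublets, mitochondrial maximums of 5% or 20% and a minimum of 500 UMIs moved none of these counts by over 1.5 times. Adding the single differences moved these ratios by over 1.5 times with the call kept: Birc5 4.10 and Cdk1 33.8 in regulatory T cells, Col1a2 7.54 in fibroblast or mesenchymal cells, S100a4 8.93 in monocytes and macrophages, Gzmb 76.2 in the same class, Ccl7 16.5 in fibroblast or mesenchymal cells, and Xlr4c 7.44, Ccl1 0.181 and Ncr1 0.136 in CD8 T cells. So did each cell weighing the same for Clnk in CD8 T cells (0.0456) and Cenpf in NK cells (2.52), and 5% free RNA subtracted for Top2a in monocytes and macrophages (0.214).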

Other observations

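A list of 17 genes of cholesterol synthesis and uptake was drawn up after Sqle and Fdps had been seen below the product value, so its counts are not independent of them. In monocytes and macrophages 12 of 17 lay below the product value and none above, with ratios from 0.287 to 0.852 and a median of 0.601. The median ratios to IgG were 1.24 for Ac, 1.28 for C and 0.957 for aC+C, so the single libraries were higher than IgG and the combination was not. In fibroblast or mesenchymal cells 12 of 16 measured members lay below, with a median ratio of 0.570 and a range of 0.358 to 0.771, and the median ratios to IgG were 1.24, 1.02 and 0.726. T and NK classes had smaller counts: 4 of 17 below in CD8 T cells, 6 of 16 in other T cells, 4 of 13 in NK cells, 4 of 10 in regulatory T cells and 0 of 8 in CD4 T cells. The difference between classes was not tested.

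Cdk5rap1, which modifies mitochondrial transfer RNA, lay below the product value in 6 of the 7 classes, and its log2 deviation in barcodes of 1 to 50 UMIs was -2.00. It measured 15.97, 30.95, 17.6 and 9.79 CPM in CD8 T cells, and aC+C was the lowest library there. Hsph1 lay above in 6 of the 7 classes, with a log2 deviation of 0.78 in those barcodes. For both genes the deviations in nearly every class and in free RNA were on 1 side, and their source was not tested.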
